A study of Mus musculus with 15 samples.

Results

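The genes described are 7 aquaporins (Aqp1, Aqp2, Aqp3, Aqp4, Aqp6, Aqp7 and Aqp11) and Avpr2, the receptor through which vasopressin acts on the renal collecting duct. They were chosen by name, and they are 8 of the 33058 genes with a value in the kidneys of 15 male C57BL/6 mice, 5 each at 3, 12 and 24 months of age, on chow and tap water and with no treatment named in the labels. The value of a gene is the sum over its transcripts of FPKM, a measure of fragments scaled for transcript length and for the size of the library. Transcripts counted had been matched to the reference or assembled as a further splice form of it. The 3-month and 24-month mice have the ages of the young and old mice of the study, whose purpose was to find RNAs that change in the ageing kidney. Its methods number the mice otherwise than the labels do, and they do not describe the 12-month mice. One kidney was divided into pieces for freezing, and the sources do not state from which zone of the kidney the sequenced piece came. The methods speak once of pooled RNA, but the files hold a value for each of the 15 mice, which are taken here as single animals. Replicate numbers are those of the labels, 5 to 9 at 3 months, 17 to 21 at 12 months and 31 to 35 at 24 months.

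Aquaporins are membrane channels for water, and some of them also carry glycerol. In the kidney Aqp1 serves the constant reabsorption of water in the proximal tubule and descending thin limb. In the principal cells of the collecting duct, vasopressin binding to Avpr2 raises cAMP, which brings Aqp2 to the apical membrane, while Aqp3 and Aqp4 let water leave through the basolateral side. Aqp6 lies in vesicles of intercalated cells, Aqp7 carries water and glycerol in the last part of the proximal tubule, and Aqp11 lies in the endoplasmic reticulum of proximal tubule cells.

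The pore of an aquaporin is lined by a pair of short conserved motifs, usually asparagine, proline and alanine. The coding windows around these motifs are shown because they set apart Aqp7 and Aqp11, the 2 of the members shown whose motifs depart from the usual letters. Each window has 27 bases of the GRCm38 transcripts of GENCODE M21 on the coding strand, with the 9 bases of the motif in capitals, and the codon number is that of the asparagine.
Aqp1 codon 76 (chr6:55336707-55336733, + strand): gctcacctcAACCCTGCGgtcacactg
Aqp1 codon 192 (chr6:55345828-55345854, + strand): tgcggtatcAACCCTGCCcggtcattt
Aqp2 codon 68 (chr15:99579345-99579371, + strand): gcccacatcAACCCTGCTgtgactgtg
Aqp2 codon 184 (chr15:99583115-99583141, + strand): tgctccatgAATCCAGCCcgctccctg
Aqp3 codon 83 (chr4:41094810-41094836, - strand): gcccacttgAACCCCGCTgtgaccttc
Aqp3 codon 215 (chr4:41093832-41093858, - strand): tatgccgtcAACCCTGCCcgtgacttt
Aqp6 codon 79 (chr15:99601633-99601659, + strand): gcccacgccAACCCTGCTgtgaccctg
Aqp6 codon 193 (chr15:99602984-99603010, + strand): tgttccatgAACCCAGCCcgctccttc
Aqp7 codon 79 (chr4:41035602-41035628, - strand): gcccacatgAATGCCGCAgtgactttc
Aqp7 codon 211 (chr4:41034804-41034830, - strand): tatgcaatcAACCCATCCcgtgacctg
Aqp11 codon 99 (chr7:97737676-97737702, - strand): acagctagcAACCCGTGCggcgtgatg
Aqp11 codon 216 (chr7:97729044-97729070, - strand): gcattgtttAACCCAGCGctggcactt
In Aqp7 both motifs are altered, to asparagine-alanine-alanine and asparagine-proline-serine, and in Aqp11 the upstream motif ends in cysteine. No window is shown for Aqp4.

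In the files' coordinates, on GRCm38, Aqp1 is at chr6:55336432-55348555, Aqp2 at chr15:99579017-99590052, Aqp3 at chr4:41092722-41098183, Aqp4 at chr18:15389117-15410951, Aqp6 at chr15:99601176-99605477, Aqp7 at chr4:41032877-41048139, Aqp11 at chr7:97724006-97738289 and Avpr2 at chrX:73891770-73895502. Aqp2 and Aqp6 are neighbours on chromosome 15, separated in the annotation by Aqp5, and Aqp3 and Aqp7 lie near each other on chromosome 4. Avpr2 is overlapped on the opposite strand by L1cam and Arhgap4. The library kit named in the labels keeps strand, but whether strand was used in the mapping is not given in the sources used here.

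The order of the mean levels over the 15 mice was Aqp1, Aqp2, Aqp3, Aqp6, Aqp7, Aqp11, Aqp4 and Avpr2. Aqp1 had a mean of 192 FPKM and ranked 102 among the 33058 genes. Aqp2 had a mean of 43.4 FPKM, Aqp3 one of 19.5, Aqp6 one of 18.02, Aqp7 one of 9.51, Aqp11 one of 7.69, Aqp4 one of 6.95, and Avpr2 one of 2.33 FPKM, at rank 10536. FPKM is scaled for length, which allows these levels to be set beside each other only with limits. Assembled forms made up 97.7% of the sum of Aqp6, 74.8% of that of Avpr2 and 67.7% of that of Aqp4. The overlap of Avpr2 with genes of the opposite strand is a further limit. Neighbours in the order were compared within each mouse. Aqp1 exceeded Aqp2 in 14 of 15 mice, Aqp2 exceeded Aqp3 in 15, Aqp6 exceeded Aqp7 in 15 and Aqp4 exceeded Avpr2 in 13, each by a mean log2 ratio larger than its SD over the mice. Aqp3 was above Aqp6 in only 8 of 15 mice (mean log2 ratio 0.08 ± 0.51 SD), Aqp7 above Aqp11 in 11 (0.33 ± 0.67) and Aqp11 above Aqp4 in 9 (0.29 ± 1.13). These 3 pairs of neighbours did not differ beyond their spread.

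**Figure D1:**
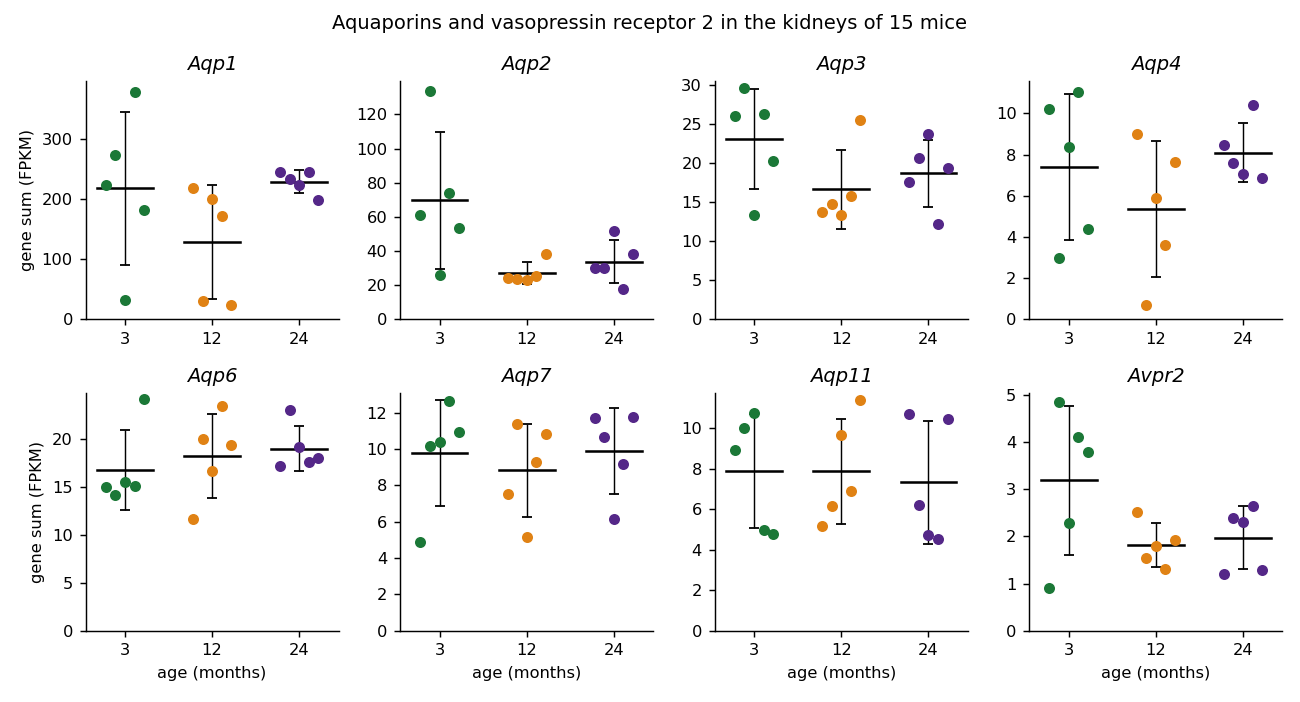
Gene sums in FPKM (linear axes from 0) of the 8 genes at 3, 12 and 24 months. Each point is 1 mouse, the horizontal line is the mean and the bar the SD of 5 mice. Aqp1 is at 31.8 FPKM or lower in 1 mouse of 3 months and 2 of 12 months, and Aqp2 is at least 53.2 FPKM in 4 of the 5 mice of 3 months and in no older mouse.

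The comparison of the study's design is between the old and the young kidneys. At 24 against 3 months none of the 8 genes passed an adjusted p of 0.05 in limma (moderated linear models on log2(FPKM + 1), Benjamini-Hochberg adjustment over all 31755 genes tested), where 1.22% of all genes did. At an unadjusted p under 0.05, 0 of the 8 were higher and 0 lower, against 11.4% of all genes higher and 3.47% lower. Aqp2 lay at this threshold, with an unadjusted limma p of 0.050003. In none of the 8 did the values of the old and young mice lie apart without overlap, which was the case for 4.73% of all genes. The members' adjusted p-values ran from 0.336 to 0.957, and the median of their log2 differences was -0.04, beside 0.02 for all genes.

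At 12 against 3 months, again, no member passed the adjusted threshold, which 0.250% of 31637 genes did. At an unadjusted p under 0.05, 1 of the 8 was lower (Aqp2) and 0 were higher, against 2.90% of all genes lower and 11.4% higher. The members' median log2 difference was -0.46, beside 0.02 for all genes, and 6 of the 8 differences were negative. For each pair of ages the median of all genes includes genes near 0 FPKM, which can differ little on this scale. The signs of the members are not all separate observations, since Aqp2 and Aqp3 moved together among the mice. No member was free of overlap between these ages, as 4.11% of all genes were. At 24 against 12 months no member passed the adjusted threshold (0.00310% of 32282 genes did), none was past an unadjusted 0.05 in either direction (3.07% of all genes were higher and 3.36% lower), and none was free of overlap (1.07% of all genes). There the median of the members was 0.17, beside -0.00126 for all genes. Comparisons that share an age share its mice. In addition each member was tested for each pair of ages by an exact two-sided permutation test of the difference in mean log2(FPKM + 1), 24 tests in all, whose smallest possible p with 5 mice against 5 is 0.00794.

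**Figure D2:**
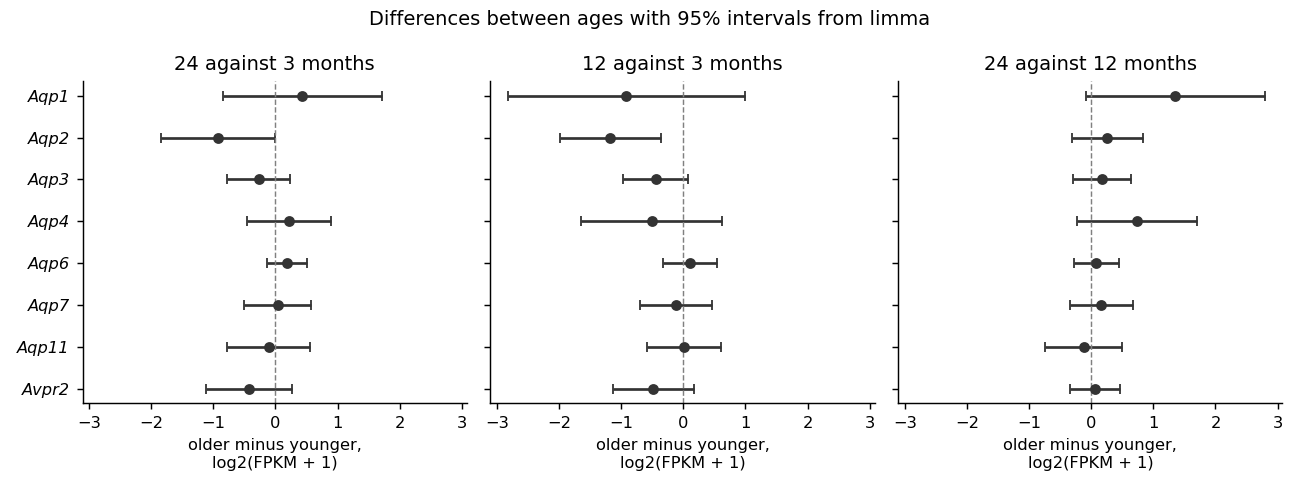
Difference between ages (older minus younger, on the log2(FPKM + 1) scale) of the 8 genes, with the 95% interval from limma, for the 3 pairs of ages. The interval of Aqp2 lies below 0 at 12 against 3 months and reaches to 0 at 24 against 3 months, and the intervals of Aqp1 are the widest.

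Aqp2, the water channel that vasopressin regulates, had 61.4, 134, 25.9, 73.7 and 53.2 FPKM in the 3-month mice 5 to 9. The 12-month mice 17 to 21 had 24.3, 23.8, 23.0, 25.5 and 38.3 FPKM. The 24-month mice 31 to 35 had 30.1, 30.2, 51.7, 17.9 and 38.4 FPKM. Thus 4 of the 5 young mice were above every older mouse, and replicate 7 lay within the range of the older mice. The means were 69.6 ± 39.95 FPKM at 3 months, 26.97 ± 6.42 at 12 months and 33.7 ± 12.5 at 24 months (SD, n = 5 each).

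The log2 difference of Aqp2 at 12 against 3 months was -1.17 (SE 0.36, limma adjusted p = 0.191), with an exact permutation p of 0.0159. The mean at 12 months was 0.388 of that at 3 months. At 24 against 3 months the log2 difference was -0.92 (SE 0.41, 95% interval -1.84 to 0.00, limma adjusted p = 0.336), where the exact permutation p was 0.0794 and the unadjusted limma p 0.050003. At 24 against 12 months it was 0.26 (SE 0.26, limma adjusted p = 0.820). In 8 of 9 other settings of the fit, the unadjusted p of Aqp2 at 24 against 3 months, from limma or an F test, was under 0.05. The value at 24 against 3 months depended on single young mice. It was -1.22 without replicate 7 (limma adjusted p = 0.168, past an unadjusted 0.05) and -0.64 without replicate 6, the highest (limma adjusted p = 0.482). The difference at 12 against 3 months stayed between -1.48 and -0.89 with any 1 mouse left out, with limma adjusted p from 0.106 to 0.309.

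Aqp3, the basolateral channel for water and glycerol in the same cells, had 26.03, 29.6, 13.4, 26.3 and 20.2 FPKM in the 3-month mice 5 to 9. The 12-month mice 17 to 21 had 13.7, 14.8, 13.3, 15.8 and 25.5 FPKM, and the 24-month mice 31 to 35 had 17.6, 20.7, 23.8, 12.2 and 19.4 FPKM. The ages overlapped, with replicate 7 again the lowest of the young mice and replicate 21 the highest at 12 months. The log2 difference at 12 against 3 months was -0.44 (SE 0.23, limma adjusted p = 0.435), and at 24 against 3 months it was -0.27 (SE 0.23, limma adjusted p = 0.652). Without replicate 7 these were -0.62 and -0.45 (limma adjusted p = 0.226 and 0.341, both past an unadjusted 0.05). With another single mouse left out they came as near to 0 as -0.35 (without replicate 6, limma adjusted p = 0.583) and -0.13 (without replicate 34, limma adjusted p = 0.799).

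Aqp2 and Aqp3 moved together from mouse to mouse. After the mean of each age was taken away, Pearson's r of log2(FPKM + 1) over the 15 mice was 0.90 (Spearman's rho 0.96), and 0.90 over 13 mice without the 2 farthest from the median of Aqp2. Among 7462 genes with a mean of at least 5 FPKM, Aqp3 was the gene most like Aqp2 by this measure. Pde2a (r = 0.89) and C2cd2l (r = 0.86) came next for Aqp2, and C2cd2l (r = 0.91) and Snn (r = 0.90) stood beside Aqp2 in the list of Aqp3. The other 27 pairs of members had r between -0.48 and 0.31. These r are descriptions without a test, and the 2 values of a mouse come from one library and one piece of kidney. The ratio of Aqp2 to Aqp3 was 1.94 to 4.52 in the 3-month mice (median 2.63), 1.505 to 1.76 in the 12-month mice and 1.46 to 2.17 in the 24-month mice.

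**Figure D3:**
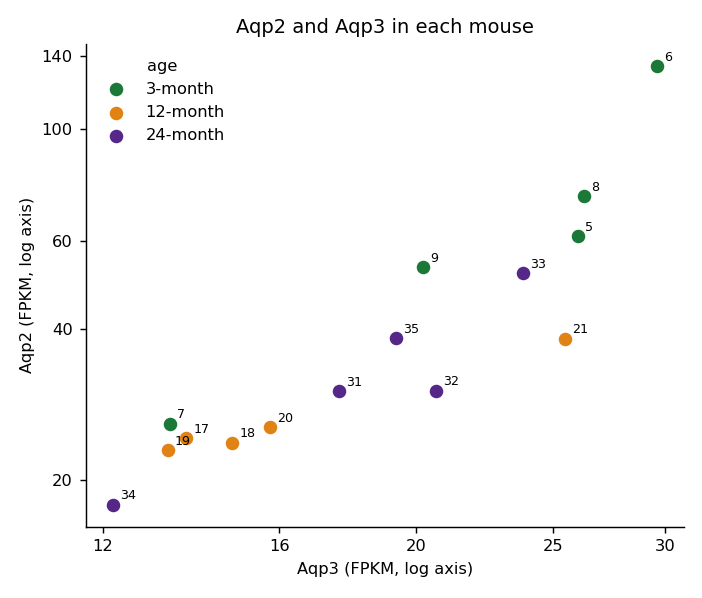
Aqp2 against Aqp3 in FPKM on log axes, 1 point for each mouse with its replicate number, coloured by age. The points run from replicate 34 (Aqp2 17.9 and Aqp3 12.2 FPKM) to replicate 6 (134 and 29.6 FPKM). At a like level of Aqp3, replicate 9 of 3 months (53.2 and 20.2 FPKM) lies above replicate 32 of 24 months (30.2 and 20.7 FPKM).

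The promoters of Aqp2 and Aqp3 are shown because these genes moved together among the mice. Both run from 250 bases before to 50 bases after the start in RefSeq on GRCm38.p6, are printed on the strand of the gene, and carry in capitals every match to 4 motifs searched on both strands. The core of the cAMP response element, which CREB binds, was searched as TGACG, and the site of GATA factors as AGATAA. For the box bound by the TATA-binding protein the letters were TATAAA, and for the tonicity enhancer bound by Nfat5 its core letters TGGAAA.
Aqp2 promoter (chr15:99578806-99579105, + strand): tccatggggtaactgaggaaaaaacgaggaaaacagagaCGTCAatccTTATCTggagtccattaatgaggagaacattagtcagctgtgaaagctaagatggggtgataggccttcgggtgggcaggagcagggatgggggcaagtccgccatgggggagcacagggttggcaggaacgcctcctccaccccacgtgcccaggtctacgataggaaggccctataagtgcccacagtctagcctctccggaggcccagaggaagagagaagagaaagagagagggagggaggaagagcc
Aqp3 promoter (chr4:41098134-41098433, - strand): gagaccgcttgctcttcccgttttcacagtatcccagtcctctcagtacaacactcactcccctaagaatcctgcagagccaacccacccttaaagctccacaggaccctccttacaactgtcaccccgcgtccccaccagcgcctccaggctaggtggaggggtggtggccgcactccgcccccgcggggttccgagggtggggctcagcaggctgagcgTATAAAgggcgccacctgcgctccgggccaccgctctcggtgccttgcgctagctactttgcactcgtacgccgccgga
The Aqp2 promoter held TGACG with its leftmost base at -211 and AGATAA at -202, counted from the start, both on the opposite strand and without overlap. TGACG is in 20.8% and AGATAA in 11.2% of the 32817 promoters. The Aqp3 promoter held TATAAA at -29 on its own strand, as 13.6% of promoters hold it, and none of the other motifs. Among the 8 promoters found for 7 of the members, Aqp4 left aside and Aqp7 counted with 2, TGACG was in 1, AGATAA in 2, TATAAA in 2 and TGGAAA in 1, the last being held by 21.4% of all promoters.

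Avpr2, the receptor upstream of Aqp2, had 0.905, 4.85, 2.28, 4.10 and 3.79 FPKM in the 3-month mice 5 to 9. The 12-month mice 17 to 21 had 2.52, 1.55, 1.81, 1.30 and 1.92 FPKM, and the 24-month mice 31 to 35 had 1.21, 2.39, 2.31, 2.64 and 1.29 FPKM. The highest 3 values were all from young mice, and the lowest of all 15, replicate 5, was also from a young mouse. The log2 difference was -0.48 at 12 against 3 months (SE 0.29, limma adjusted p = 0.495) and -0.42 at 24 against 3 months (SE 0.31, limma adjusted p = 0.583). Without replicate 5 these were -0.74 and -0.68 (limma adjusted p = 0.179 and 0.227, both past an unadjusted 0.05), and without replicate 6 they were -0.33 and -0.27 (limma adjusted p = 0.648 and 0.710). With only reference transcripts counted, and so without the assembled 74.8% of the sum, the difference at 24 against 3 months was -0.17 (limma adjusted p = 0.810). At this level the pseudocount of 1 FPKM makes a log2 difference smaller than the ratio of the means, which was 0.571 at 12 and 0.618 at 24 months.

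Aqp4, the other basolateral water channel of the principal cell, had 10.2, 2.98, 8.37, 11.1 and 4.40 FPKM in the 3-month mice 5 to 9. In the 12-month mice 17 to 21 it had 9.02, 0.692, 5.90, 3.59 and 7.62 FPKM. The 24-month mice were the closest to each other, at 6.87 to 10.4 FPKM, and their range lay within that of the young mice. The log2 difference was 0.22 at 24 against 3 months (SE 0.30, limma adjusted p = 0.748), -0.51 at 12 against 3 months (SE 0.51, limma adjusted p = 0.659) and 0.73 at 24 against 12 months (SE 0.43, limma adjusted p = 0.820). Without replicate 18, the lowest of all, the last 2 were -0.09 and 0.32 (limma adjusted p = 0.927 and 0.844), and without replicate 6 the first was -0.0148 (limma adjusted p = 0.983). With only the reference transcript counted, 32.3% of the sum, the 3 values were -0.55, -0.08 and -0.48 instead.

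Aqp1, the abundant channel of the proximal tubule and thin limb, had 223, 274, 31.8, 379 and 182 FPKM in the 3-month mice 5 to 9. The 12-month mice 17 to 21 had 218, 30.8, 200, 173 and 23.0 FPKM, and the 24-month mice 31 to 35 had 245, 234, 224, 245 and 198 FPKM. Replicates 7, 18 and 21 were thus more than 4 times below the median of the 15 mice (218 FPKM), and no 24-month mouse was. The CV was 58.5% at 3 months, 73.4% at 12 months and 8.44% at 24 months. Of the 649 genes with a mean of at least 50 FPKM, 18 (2.77%) had 3 or more mice that far below their median and 53 (8.17%) had at least 1. Aqp1 is listed with a single transcript, ENSMUST00000004774.

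The log2 difference of Aqp1 was 1.36 at 24 against 12 months (SE 0.64, limma adjusted p = 0.789), where the exact permutation p was 0.0238 and 4 of the 5 older mice were above the highest 12-month mouse. It was -0.92 at 12 against 3 months (SE 0.85, limma adjusted p = 0.655) and 0.44 at 24 against 3 months (SE 0.57, limma adjusted p = 0.740), the last being -0.16 without replicate 7 (limma adjusted p = 0.754). At 24 against 12 months it was 0.88 without replicate 21, and at 12 against 3 months it ran from -1.51 without replicate 7 to -0.55 without replicate 18 and -0.44 without replicate 21, with limma adjusted p from 0.423 to 0.842 in these. The genes most like Aqp1 among the 15 mice, again with the age means removed and without a test, were Eci2 (r = 0.83), Acsl1 (r = 0.83) and Cyp4a10 (r = 0.82), enzymes of fatty acid metabolism. These are the largest r among 7462 genes, and the largest r of the other members were higher, at 0.85 to 0.93. Cyp4a10 had 106 FPKM in replicate 7, 128 in replicate 18 and 89.2 in replicate 21, and these were the lowest values of their ages. It was picked by its r with Aqp1 over the 15 mice, so its low values in these mice are not a separate observation. The summed level of 6 proximal tubule markers was 2028, 1865 and 2049 FPKM in the same mice, and in replicates 7 and 21 it was the highest of its age. Over the 15 mice the age-centred r of Aqp1 with this sum was -0.61 (Spearman's rho -0.65), and -0.32 over 13 mice, as a description without a test. Aqp1 was 27.4%, 28.6% and 16.9% of the sum of the 7 aquaporins in these mice and 57.7% to 77.4% in the others.

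Aqp6, the vesicular channel of intercalated cells, was at 14.1 to 24.2 FPKM at 3 months, 11.7 to 23.4 at 12 months and 17.2 to 23.0 at 24 months. Only replicate 9, at 24.2 FPKM, was above 15.6 among the young mice. The log2 difference at 24 against 3 months was 0.19 (SE 0.14, limma adjusted p = 0.605), and without replicate 9 it was 0.32 (limma adjusted p = 0.150, past an unadjusted 0.05). Without replicate 32 it was 0.12 (limma adjusted p = 0.711). With only the reference transcript counted it was 0.06 (limma adjusted p = 0.805). That transcript is 2.31% of the gene sum, with a mean of 0.417 FPKM, where the pseudocount of 1 FPKM keeps differences small. For the gene sum the difference was 0.11 at 12 against 3 months (SE 0.19, limma adjusted p = 0.817) and 0.08 at 24 against 12 months (SE 0.16, limma adjusted p = 0.908). The summed level of 5 other intercalated cell markers was 32.7 to 41.5 FPKM at 3 months, 21.5 to 30.5 at 12 months and 22.9 to 29.1 at 24 months, without overlap between the young mice and either older age. Of these markers only Slc26a4 was by itself without overlap, at 11.8 to 16.9, 9.29 to 11.6 and 7.57 to 10.8 FPKM. Among all genes 4.11% were without overlap at 12 against 3 months and 4.73% at 24 against 3 months. The other markers overlapped, as Atp6v1g3 did at 0.219 to 3.14, 0.304 to 2.98 and 0.189 to 0.661 FPKM. In bulk tissue, fewer cells of a type and less RNA per cell cannot be told apart.

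Aqp7, the channel for glycerol and water, was at 4.88 to 12.6 FPKM at 3 months, 5.13 to 11.4 at 12 months and 6.15 to 11.8 at 24 months. The 3 log2 differences between ages were -0.13 to 0.16 (SE 0.22 to 0.26), with limma adjusted p from 0.839 to 0.957. Aqp11, the channel of the endoplasmic reticulum, was at 4.78 to 10.8 FPKM at 3 months, 5.17 to 11.4 at 12 months and 4.51 to 10.7 at 24 months. Its 3 differences were -0.12 to 0.01 (SE 0.27 to 0.30). The 95% interval at 24 against 3 months was -0.51 to 0.58 for Aqp7 and -0.77 to 0.56 for Aqp11, so changes of these sizes in either direction could not be told from none with 5 mice of each age.

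The genes most like the other members, by the same age-centred r over 15 mice, were Blvrb (0.86) for Aqp4, Rnpepl1 (0.93) for Aqp6, Kat6a (0.88) for Aqp7, Ccdc124 (0.87) for Aqp11 and Pik3cb (0.85) for Avpr2. The next in order were F13b and Gm37515 for Aqp4 (0.83 and 0.82), Gng5 and Bax for Aqp6 (0.85 and 0.83), Tbc1d22a and Capn1 for Aqp7 (0.85 and 0.81), Mbd3 and Tnks1bp1 for Aqp11 (0.87 and 0.81) and Slc7a12 and Depdc5 for Avpr2 (both 0.85).

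The 8 genes had 27 transcripts in the files, of which 18 are of the reference annotation and 9 are splice forms assembled from these libraries, and 12 had a mean of at least 1 FPKM. For Aqp1, Aqp3 and Aqp11 a reference transcript made up nearly all of the gene sum. These were ENSMUST00000055327 with 97.1% for Aqp3 and ENSMUST00000206389 with 95.5% for Aqp11. For Aqp2 the reference transcript ENSMUST00000023752 had a mean of 41.1 FPKM and 94.7% of the sum, and the assembled form MSTRG.13227.1, which starts upstream and runs on to position 99590052, had 2.30 FPKM. For Aqp6 the assembled 4-exon form MSTRG.13229.1 had a mean of 17.6 FPKM and 97.7% of the sum, and the 5-exon reference transcript ENSMUST00000023754 had 0.417 FPKM.

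In Aqp7, Aqp4 and Avpr2 the leading transcript changed from mouse to mouse. For Aqp7 the 6-exon ENSMUST00000054945 (mean 6.20 FPKM) was the largest in 11 of 15 mice, the 8-exon ENSMUST00000030136 (1.65 FPKM) in 3 and the assembled 8-exon MSTRG.24346.1 (1.27 FPKM) in 1. The share of ENSMUST00000054945 ran from 12.0% in replicate 33 to 95.9% in replicate 34, both of 24 months, while ENSMUST00000030136 had 81.6% in replicate 33 and 0.0902% in replicate 34. For Aqp4 the assembled MSTRG.16444.1 (3.88 FPKM) was the largest in 8 mice and the reference ENSMUST00000079081 (2.24 FPKM) in 5, and for Avpr2 the assembled MSTRG.39583.1 (1.03 FPKM) and MSTRG.39583.2 (0.707 FPKM) were each the largest in 7. At 12 months ENSMUST00000054945 was the largest Aqp7 transcript in all 5 mice. The share given to each transcript of a gene is an estimate from reads that several transcripts have in common, so shares are not independent of each other.

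**Figure D4:**
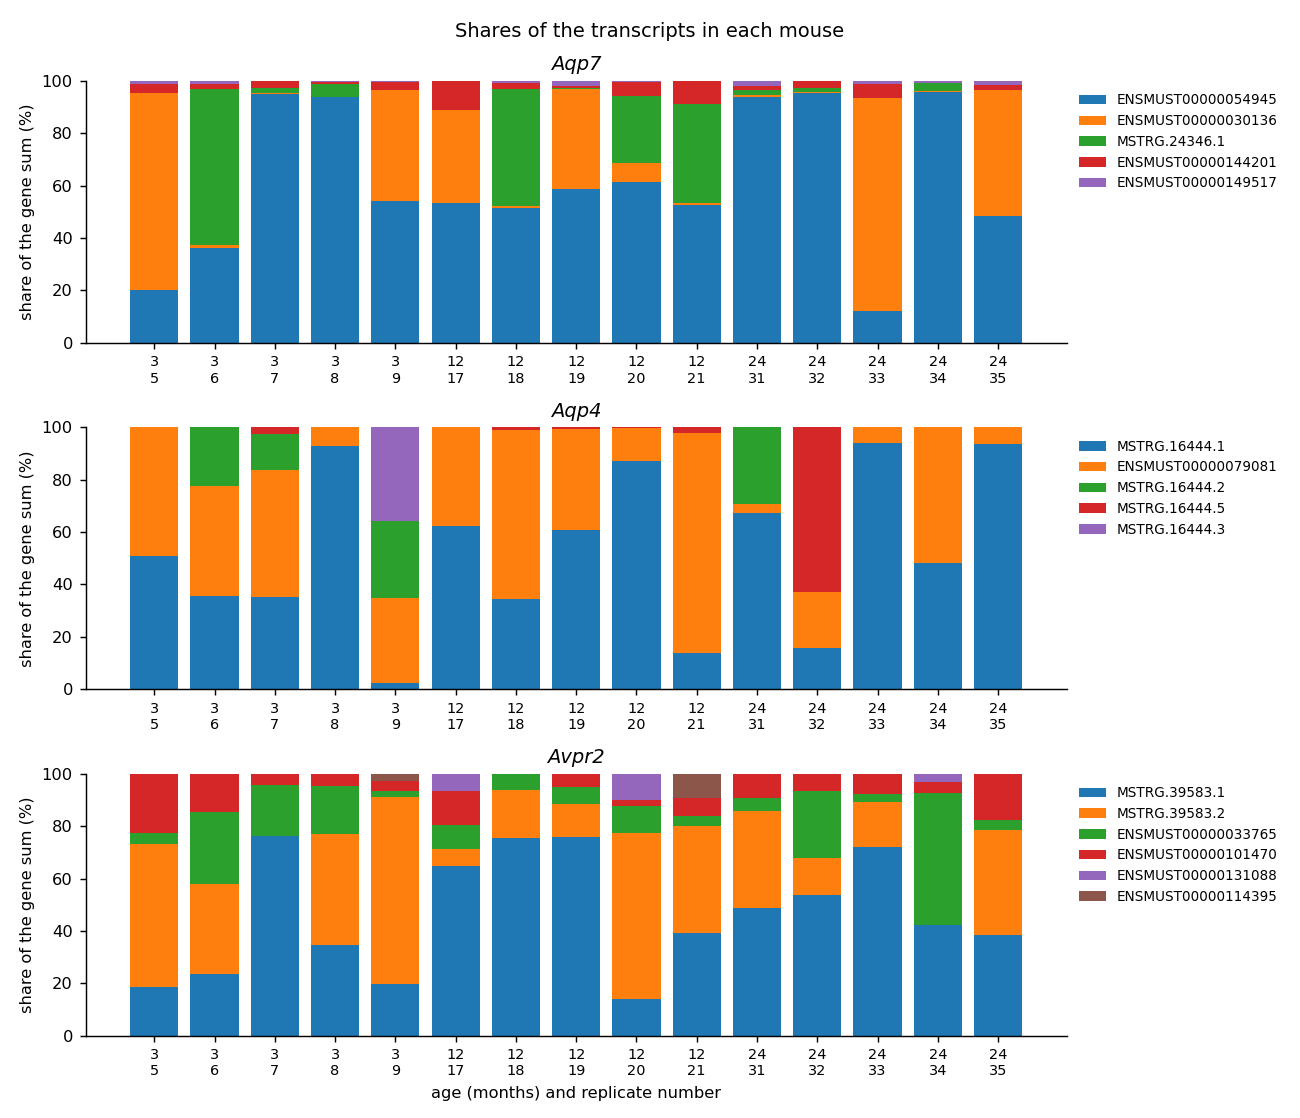
Share of each transcript in the gene sum (%, stacked to 100) of Aqp7, Aqp4 and Avpr2 in each of the 15 mice, given by age in months and replicate number. The leading transcript differs between mice of the same age in all 3 genes, other than for Aqp7 at 12 months, as between replicates 33 and 34 for Aqp7.

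In the fit over transcripts, none of the members' transcripts passed an adjusted p of 0.05 in limma. At an unadjusted p under 0.05, 2 of 27 passed at 24 against 3 months, where 7.90% of 124719 transcripts did. These were ENSMUST00000023752 of Aqp2 (log2 difference -0.97, SE 0.41, limma adjusted p = 0.606) and ENSMUST00000205784, a retained intron of Aqp11 with a mean of 0.0646 FPKM (0.07, SE 0.03, limma adjusted p = 0.545). Between 12 and 3 months 3 of 27 passed, where 7.46% of all transcripts did. They were the same pair, with -1.17 for Aqp2 (SE 0.36, limma adjusted p = 0.522) and 0.10 for Aqp11 (limma adjusted p = 0.648), and the assembled MSTRG.16444.2 of Aqp4 (-0.61, SE 0.25, limma adjusted p = 0.640), which was listed at 0 in 11 of 15 mice. At 24 against 12 months 1 of 26 passed, where 4.47% of all transcripts did, namely MSTRG.13227.1 of Aqp2 (0.80, SE 0.29, limma adjusted p = 0.838). None of the 11929 circular RNAs in the files had a member as its host gene.

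Around the members, 64 other genes were examined in 7 lists of the pathway, and 59 of them were tested at 24 against 3 months. Only 1 of the 59 passed the adjusted threshold, as 1.22% of all genes did, so that the count is near the share over all genes. It was Avpr1a, a vasopressin receptor that signals through calcium. It fell by 1.65 on the log2(FPKM + 1) scale (SE 0.30, limma adjusted p = 0.0359, exact permutation p = 0.00794). Avpr1a had 4.34, 3.803, 1.26, 0.989 and 3.49 FPKM in the 3-month mice 5 to 9, and 2.39, 0.185, 0.744, 1.78 and 0.880 FPKM in the 12-month mice 17 to 21. In the 24-month mice 31 to 35 it was listed at 0, 0.120, 0.461, 0.0248 and 0 FPKM, so that every old mouse was below every young one. Among all genes 4.73% were without overlap between these ages. Avpr1a is named because it passed the threshold among the 59, so its lack of overlap is not separate support. The 12-month mice overlapped both other ages (limma adjusted p = 0.392 against 3 months and 0.676 for 24 against 12 months). The direction was kept with any 1 mouse left out, but the adjusted p then ran up to 0.0797, and it was 0.159 in an F test with a library covariate. The difference between the changes of Avpr1a and Avpr2 was not tested. Of the hormone genes Oxt had at most 0.205 FPKM and the oxytocin receptor Oxtr 0.252 FPKM.

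At an unadjusted p under 0.05, 3 of the 59 pathway genes were higher and 5 lower at 24 against 3 months, beside 11.4% and 3.47% of all genes. Of 14 genes of the cAMP and kinase steps after the receptor, 1 was higher and 2 were lower. They were Creb1, which binds the cAMP response element (log2 difference -0.29, SE 0.08, limma adjusted p = 0.132), its coactivator Crebbp (-0.24, limma adjusted p = 0.232) and the adenylyl cyclase Adcy3 (0.31, limma adjusted p = 0.267). Among 18 genes of the trafficking and turnover of Aqp2, the vesicle protein Vamp2 was higher (0.61, limma adjusted p = 0.140) and the ubiquitin ligase Nedd4l lower (-0.43, limma adjusted p = 0.280). Stub1, next by p, was listed at 0 in most mice (-0.53, limma adjusted p = 0.469). Of 8 transcription factors named for Aqp2, Nfatc1 was higher (0.23, limma adjusted p = 0.315), and Elf3 (-0.38) did not pass an unadjusted 0.05.

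In the list of 6 genes for urea transport and osmolytes of the medulla, the inositol carrier Slc5a3 was lower at 24 against 3 months (-1.20, SE 0.45, limma adjusted p = 0.246). It had 0.121 to 35.2 FPKM within the 12-month mice alone. The taurine carrier Slc6a6 (0.19) and the aldose reductase Akr1b3 (-0.20) had limma adjusted p of 0.798 and 0.816. None of 6 genes of glycerol handling passed an unadjusted 0.05, with Gpd1 (0.18), Lipe (0.09) and Pnpla2 (0.12) the nearest. Of 4 further aquaporins tested, all at most 0.614 FPKM in any mouse, none passed, and Aqp8 (-0.08), Aqp10-ps (0.04) and Aqp9 (0.00) were the nearest. Between 12 and 3 months 7 pathway genes were higher and 5 lower of 60 at an unadjusted 0.05, beside 11.4% and 2.90% of all genes. At 24 against 12 months 2 were higher and 3 lower of 59, beside 3.07% and 3.36% of all genes. None passed the adjusted threshold in either comparison.

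The cell types to which the members belong were checked by marker lists without them, and all 45 marker genes were above 0 in at least 1 mouse. The 5 principal cell markers summed to 61.5 to 97.4 FPKM at 3 months, 50.04 to 67.2 at 12 months and 45.3 to 62.6 at 24 months. Of these 5, Hsd11b2, the enzyme that protects the mineralocorticoid receptor from glucocorticoids, was the only one past an unadjusted 0.05 at 24 against 3 months (-0.996, SE 0.42, limma adjusted p = 0.301), with 41.8, 56.4, 19.7, 53.7 and 13.7 FPKM in the young and 11.5 to 27.05 FPKM in the old mice. The sodium channel subunits Scnn1g (-0.34) and Scnn1b (-0.12) had limma adjusted p of 0.393 and 0.686. Without Hsd11b2 the sum of the other 4 was 32.9 to 49.6 FPKM at 3 months, 34.7 to 40.7 at 12 months and 32.95 to 42.2 at 24 months. The age-centred r of Aqp2 with the sum of 5 was 0.54 over 15 mice and 0.20 without 2 of them. That of Aqp3 was 0.45 and 0.45, and that of Avpr2 0.21 and 0.06. The 2 mice left out were those farthest from the median of the member, and these r are descriptions without a test. The part of the number of principal cells in the values of Aqp2, Aqp3, Aqp4 and Avpr2 was not tested.

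**Figure D5:**
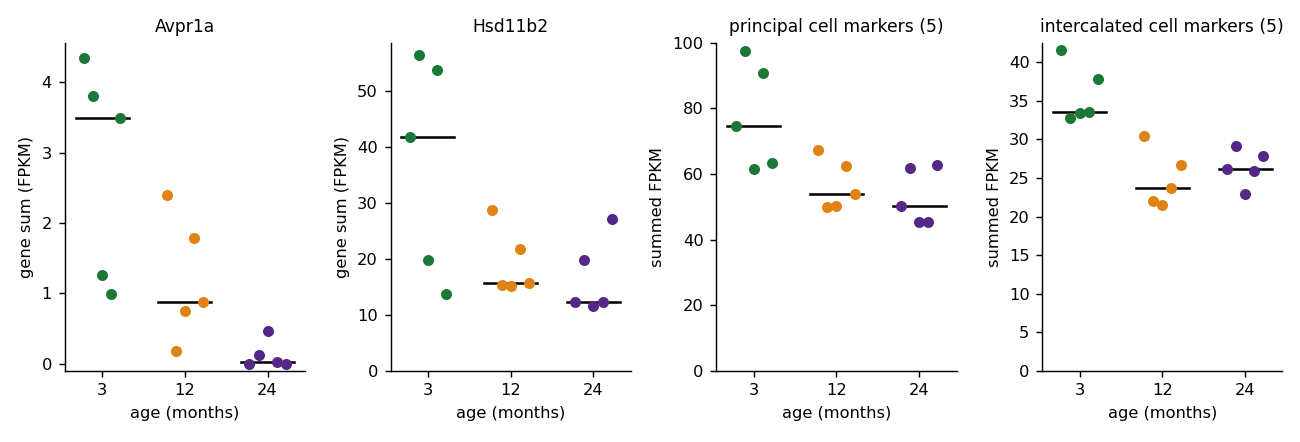
Avpr1a and Hsd11b2 (gene sum in FPKM) and the summed FPKM of the principal and intercalated cell markers, 5 each, at the 3 ages. Each point is 1 mouse and each line the median of 5, and Avpr1a is at most 0.461 FPKM in the old mice and at least 0.989 FPKM in the young ones.

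Among the intercalated cell markers Slc26a4, the chloride-bicarbonate exchanger pendrin, was lower at 24 against 3 months (-0.54, SE 0.12, limma adjusted p = 0.0696), and Atp6v1g3 (-0.73) and Foxi1 (-0.64) had limma adjusted p of 0.339 and 0.571. The 6 proximal tubule markers summed to 1628 to 2028 FPKM at 3 months and 1513 to 1846 at 24 months. Its glucose carrier Slc5a2 (-0.56, limma adjusted p = 0.0703) and lactate carrier Slc5a12 (-0.43, limma adjusted p = 0.270) were past an unadjusted 0.05, and Lrp2 (-0.14) was not. Leukocyte markers summed to 1.77 to 6.03 FPKM at 3 months and 5.24 to 10.7 at 24 months. Of these 5 markers, 4 were higher at an unadjusted 0.05, as 11.4% of all genes were. Among them were Cd79a (0.48), Ptprc (0.78) and Itgam (0.55), with limma adjusted p of 0.0521, 0.226 and 0.256. The marker that was not higher, Cd68, had a mean of 0.321 FPKM at 3 months and 0.233 at 24 months. None of 4 thick ascending limb markers passed (Cldn16 -0.41, Cldn10 0.09, Umod -0.05), nor of 5 urothelium markers (Upk1b 0.30, Psca 0.68, Upk1a 0.20), of 5 red blood cell genes (Hbb-bs -0.67, Hba-a2 -0.52, Hba-a1 -0.52) or of 5 adipocyte genes (Retn 0.29, Cidec 0.26, Plin1 0.21). Of 5 endothelial markers Pecam1 (0.26) was past an unadjusted 0.05, and Emcn (0.36) and Kdr (0.13) were not. The adipocyte markers, which matter for Aqp7 because fat cells also make it, summed to at most 6.73 FPKM in any mouse.

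The aligned sequence behind these values was 5.03 to 6.13 Gb for each 3-month library, 5.84 to 8.03 Gb at 12 months and 6.07 to 7.33 Gb at 24 months, and 23354 to 24198, 24462 to 25350 and 24747 to 25435 genes were above 0. The median depth was lowest at 3 months (6.04 Gb, beside 7.17 Gb at 12 and 7.00 Gb at 24 months), with single older libraries within the range of the young ones. The part of depth in the differences was not tested.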

How the data were processed

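Kidney RNA of 15 male C57BL/6 mice (the labels' name, C57BL/6J in the paper's text) was sequenced, 1 library for each mouse, with ages taken from the age label, since every sample title carries the 3-month prefix. The labels name ribosomal depletion and a stranded kit, whereas the methods of the study name poly(A) selection. The authors trimmed reads with Cutadapt, mapped them to GRCm38 (Ensembl release 88) with Bowtie2 and HISAT2 and assembled transcripts with StringTie, while the submitters' processing notes name TopHat2, TopHat and StringTie. The deposited FPKM and the deposited mean coverage per base are StringTie estimates by the authors, with no read counts for linear RNA. Aligned bases were taken from the ratio of the deposited coverage to FPKM. The circular RNA table, with the estimated counts and FPKM deposited by the authors, was used only to look for host genes. All columns of values belonged to these mice.

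FPKM were summed over transcripts of a gene with class code =, c, j or o (a match, containment, a shared junction or another overlap). Genes with a value above 0 in any mouse of the comparison were tested on log2(FPKM + 1) with limma 3.58.1 (trend) in R 4.3.3, only the 2 ages compared entering a fit, with Benjamini-Hochberg adjustment over all genes or transcripts. The study names DESeq2 and edgeR, which need counts. Exact permutation tests and r used Python 3.11.15, numpy 2.4.6 and pandas 2.3.3, and figures matplotlib 3.10.9. Of 18 reference transcripts, 16 had the same ends in GENCODE M21.

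The members and lists were chosen with earlier results of these data known. Named were all members, their transcripts with a mean of at least 1 FPKM or an unadjusted p under 0.05, up to 3 genes of each list with the smallest p at 24 against 3 months, any list gene past the adjusted threshold, and the 3 genes most like each member. Cd68 is named beside them as the leukocyte marker that was not higher. One list gene that the rule would name is not reported here. The labels call the mice separate samples, and p-values measure the spread between them.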

Additional observations from a re-analysis of the deposited data

Results flagged for a closer look

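In 4 of 24 sets of 5 mice (8 genes at 3 ages, on the log2(FPKM + 1) scale), 1 mouse lay farther from its neighbour than Dixon's limit of 0.71 of the whole range. Chance flags about 1 in 20 such sets, but the sets are not independent, since Aqp2 and Aqp3 moved together from mouse to mouse. At 12 months replicate 21 was the highest for both Aqp2 (38.3 FPKM, the others 23.0 to 25.5) and Aqp3 (25.5 FPKM, the others 13.3 to 15.8). At 3 months replicate 9 was the highest for Aqp6 (24.2 FPKM, the others 14.1 to 15.6), and replicate 5 the lowest for Aqp7 (4.88 FPKM, the others 10.2 to 12.6). Replicate 21 was also one of the 3 mice with low Aqp1.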

How the results depend on the processing

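No paired analysis was possible because the ages share no replicate numbers. Beside another pseudocount (0.1), a minimum mean of 1 FPKM, TPM, median scaling, one fit over the 15 mice, a robust prior, an F test with a library covariate and 2 other sums of transcripts, each mouse was left out in turn. No member passed the adjusted threshold under any of them. The number of members at an unadjusted p under 0.05 for 24 against 3 months, 0, became 1 with the pseudocount of 0.1, the minimum mean, median scaling, 15 mice, the robust prior, class code = only or all rows of the name, and 2 with the F test, and it was 0 to 2 with 1 mouse left out. For 12 against 3 months the 1 became 2 with median scaling and 3 with the F test, and was 1 to 2 with a mouse left out. For 24 against 12 months the 0 became 1 with TPM or class code = only and 2 with the F test, and was 0 to 1 with a mouse left out. The members' transcripts at that threshold, 2 for 24 against 3 months, were 1 with the minimum mean or the F test and 0 to 3 with a mouse left out. For 12 against 3 months the 3 became 1 with these, and were 1 to 3 with a mouse left out. For 24 against 12 months the 1 became 0 with 15 mice, and was 1 to 4 with a mouse left out.

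Of 216 fold changes of single members under other settings 6 changed sign, all of them differences past no threshold. With class code = only these were Aqp4 at 24 against 3 months (-0.55) and 24 against 12 months (-0.48) and Aqp6 at 12 against 3 months (-0.14), with median scaling Aqp7 at 24 against 3 months (-0.0025) and Aqp11 at 12 against 3 months (-0.0517), and with TPM the latter (-0.0272). Of 240 with a mouse left out, 18 changed sign. At 24 against 3 months Aqp1 ran from -0.16 to 0.73, Aqp4 from -0.0148 to 0.38, Aqp7 from -0.17 to 0.18 and Aqp11 from -0.25 to 0.0235. At 12 against 3 months Aqp7 ran from -0.33 to 0.0331 and Aqp11 from -0.12 to 0.13. At 24 against 12 months Aqp6 ran from -0.0577 to 0.18, Aqp11 from -0.26 to 0.0132 and Avpr2 from -0.0222 to 0.16. Avpr1a, whose alternatives were added after its values were seen, kept its adjusted threshold in 10 of 19 of them, with log2 differences from -3.84 to -1.50 and adjusted p from 0.0193 to 0.159. The causes were not tested.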
